A study of Mus musculus with 15 samples.

Results

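The BCL2 family genes set whether a lymphoid cell survives or dies through its mitochondria, and they were followed here in 15 mouse T cell leukemia lines by RNA-sequencing. The members were chosen by name. They were the survival genes *Bcl2*, *Bcl2l1*, *Mcl1* and *Bcl2a1b*, the effector *Bak1*, and *Bcl2l11*, *Bad*, *Bid*, *Bmf* and *Pmaip1* of the BH3-only class. Of these 10 genes, 8 were among the 12545 genes analysed, and *Bcl2a1b* and *Pmaip1* were not analysed here. All lines were derived from the thymus of FVB/NJ mice that lacked E2a, and none was treated. The 7 *E2a-/-* lines carried no other labelled change, while the 8 lines of the genotype E2a-/-LefF/F LckCre+ (DKO) also had floxed *Lef1* alleles and a Cre transgene driven by the *Lck* promoter, which is active in T cell precursors from the DN2 stage. Thymic cells from moribund mice were kept in culture for over 2 weeks to establish each line, no age is given in the labels, and whether a line is 1 clone is not stated. Each line gave 1 library and counts as 1 replicate, so the tests measure the spread between lines.

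In mitochondrial apoptosis the effectors BAK and BAX permeabilise the outer mitochondrial membrane, after which cytochrome c engages APAF1 and the caspases are activated. The survival proteins BCL2, BCL-XL (from *Bcl2l1*), MCL1 and A1 (from *Bcl2a1b*) hold the effectors in check, and BH3-only proteins such as BIM (from *Bcl2l11*), BAD, BID, BMF and NOXA (from *Pmaip1*) oppose them. In the thymus BCL2 is low in double-positive cells, which depend on BCL-XL and MCL1, and BIM is needed for the death of self-reactive thymocytes. Much of the control of this family is exerted on the proteins, which were not measured here.

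The balance of the survival genes *Bcl2*, *Bcl2l1* and *Mcl1* is central to what follows, so their upstream sequences are shown first. Each run gives the 250 bases before the RefSeq start on GRCm38.p6, read 5′ to 3′ along the gene's strand. Capitals mark CANNTG, the E-box that E proteins such as E2A bind, which reads the same on both strands. The *Bcl2* window (minus strand, chr1:106714291-106714540) had 74.8% G and C and no CANNTG.
Bcl2: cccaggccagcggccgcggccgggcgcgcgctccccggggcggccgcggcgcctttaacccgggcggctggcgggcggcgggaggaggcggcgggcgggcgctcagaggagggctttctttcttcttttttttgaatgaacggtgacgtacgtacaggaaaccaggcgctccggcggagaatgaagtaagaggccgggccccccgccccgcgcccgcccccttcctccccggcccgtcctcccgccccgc
The window before the outermost of the 3 RefSeq starts of *Bcl2l1* (minus strand, chr2:152831729-152831978) held 1 CANNTG.
Bcl2l1: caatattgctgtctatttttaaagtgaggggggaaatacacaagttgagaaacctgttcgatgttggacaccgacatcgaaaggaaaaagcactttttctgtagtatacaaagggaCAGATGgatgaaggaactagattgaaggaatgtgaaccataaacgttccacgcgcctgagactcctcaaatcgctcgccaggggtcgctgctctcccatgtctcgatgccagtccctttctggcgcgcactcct
The *Mcl1* window (plus strand, chr3:95658471-95658720) also held 1.
Mcl1: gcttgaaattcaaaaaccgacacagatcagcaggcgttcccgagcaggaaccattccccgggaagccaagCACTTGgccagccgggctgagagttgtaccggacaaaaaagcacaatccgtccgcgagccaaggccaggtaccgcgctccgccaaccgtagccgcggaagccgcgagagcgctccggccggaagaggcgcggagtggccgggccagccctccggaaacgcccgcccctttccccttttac
Of the 14 windows of the members, 9 held CANNTG, beside 66.2% of 32851 windows of the same length over all genes. TCAAAG, a core bound by LEF1 and its relatives and searched on both strands, was in 0 of 14 windows and in 13.8% of all. These are matches of letters, not measured binding.

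Expression is given in CPM, the reads of a gene scaled by the total number assigned to genes in the line. Libraries held 4847970 to 21377352 reads in DKO lines and 14477802 to 21681586 in *E2a-/-* lines, so that 3 reads, the least taken as detected, are worth 0.138 to 0.618 CPM. The targeted gene *Lef1* was at 103 to 210 CPM in the DKO lines. It was at 668 to 1558 CPM in 6 *E2a-/-* lines but at 59.0 CPM in the library labelled SKO132, also *E2a-/-*, which is below every DKO line. The *Lef1* level of this library thus goes against its label, which may be wrong, and it was kept in its labelled group. Leaving that library out turned the sign of the limma log2 fold change of no BCL2 family member. The log2 fold change of *Lef1* was -2.33 (adjusted p = 0.0980 from limma), and reads from deleted and retained exons cannot be told apart. All 7 T lineage markers examined were among the genes analysed, with summed levels of 2799 to 4685 CPM (DKO) and 1892 to 4258 CPM (*E2a-/-*). The library labelled SKO132 was the lowest *E2a-/-* library for *Cd3e*, *Cd3d*, *Cd3g*, *Lck* and *Ptcra*, but not for *Thy1* and *Bcl11b*. Its *Cd3d* was at 47.0 CPM (*E2a-/-* median 376), and its *Ptcra*, at 0.165 CPM, rested on 3 reads. Of the marker lists for other cells, 0 of 4 B lineage, 0 of 3 erythroid and 2 of 7 myeloid genes were among the genes analysed, and the summed level of the myeloid genes ran from 5.81 to 14.0 CPM among DKO lines and from 5.48 to 12.7 CPM among *E2a-/-* lines. The NK, stromal and thymic epithelial lists had 1 gene each, at no more than 8.24 CPM in any line.

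*Bcl2* (chr1:106538178-106714274 on GRCm38, minus strand) was the member that varied most between the *E2a-/-* lines. In the DKO lines it was at 3.97 CPM in DKO548, 4.66 in DKO170.2, 4.73 in DKOTu3, 6.53 in DKO241, 7.20 in DKO192.3, 8.04 in DKO79.9, 11.2 in DKO102.4 and 28.4 in DKO713. The *E2a-/-* lines split, with 109 CPM in SKO115.2, 92.7 in SKO163.5 and 65.1 in SKO95, against 3.42 in the library labelled SKO132, 0.809 in SKO137.1, 0.414 in SKO156.6 and 0.332 in SKO186.5. All 8 DKO lines lay in the gap between these sets of *E2a-/-* lines, so that the groups overlapped although no DKO line came near either extreme. The library labelled SKO132, at 3.42 CPM, was close to the lowest DKO line, DKO548 at 3.97 CPM, and above the other low *E2a-/-* lines, at 0.332 to 0.809 CPM. The lowest value, in SKO186.5, rested on 7 reads and that of SKO156.6 on 6, above the 3 reads taken as detected. The antisense gene *D630008O14Rik* overlaps *Bcl2*, and without knowledge of strand their reads cannot be told apart.

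This spread decides how the groups compare for *Bcl2*. The mean was 9.34 ± 8.03 CPM in DKO lines (SD, n = 8) and 38.8 ± 48.6 CPM in *E2a-/-* lines (SD, n = 7), but the medians stood in the opposite order, at 6.86 and 3.42 CPM. The *E2a-/-* median is the value of the library labelled SKO132, whose *Lef1* level goes against its label. SKO115.2, SKO163.5 and SKO95 lay above it and SKO137.1, SKO156.6 and SKO186.5 below it, so the order of the medians rests on that library. On the log2(CPM + 1) scale the fold change of DKO against *E2a-/-* was -0.21, with a 95% interval from -2.37 to 1.95 (limma adjusted p = 0.964, two-sided exact permutation p = 0.851). Tests on the read counts, which compare means that are not taken on a log scale, gave a log2 fold change of -2.03 by edgeR's quasi-likelihood test (adjusted p = 0.507) and -2.04 by DESeq2 (adjusted p = 0.307). The fold change on the log2(CPM + 1) scale was positive without SKO115.2 (0.37), SKO163.5 (0.33) or SKO95 (0.24). In bulk RNA, fewer expressing cells and less RNA per cell cannot be told apart. The standard deviation of *Bcl2* over lines on that scale was 0.83 in DKO and 2.99 in *E2a-/-* lines, larger than that of 86.3% and 99.5% of the 9707 genes whose mean reached 5 CPM.

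**Figure D1:**
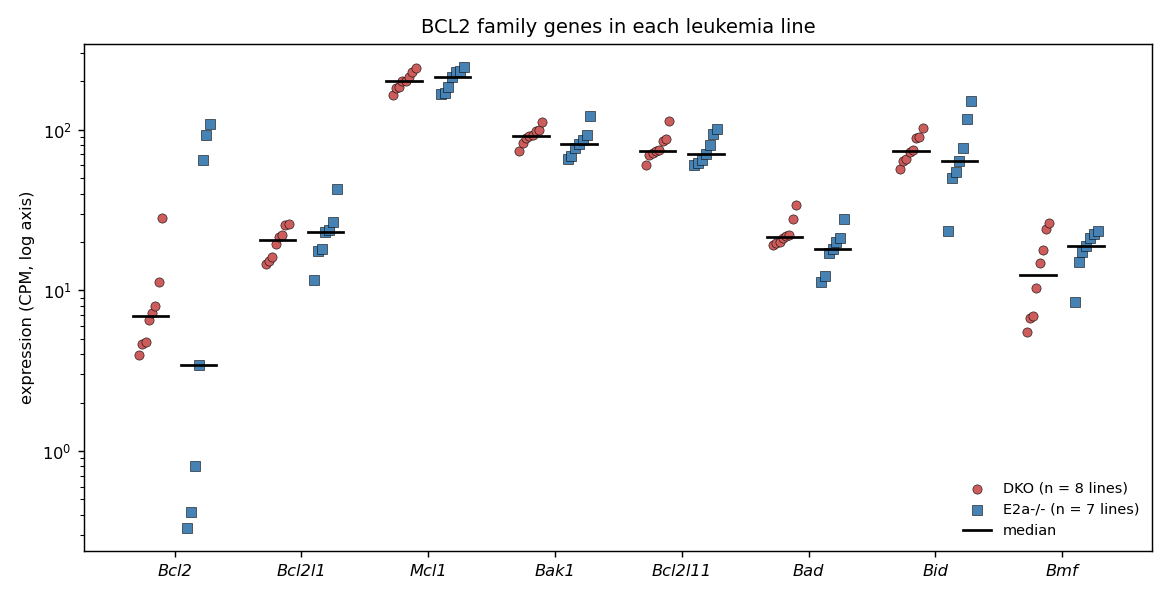
Expression (CPM, log axis) of the 8 analysed BCL2 family genes, 1 point per line, in 8 DKO lines (circles) and 7 *E2a-/-* lines (squares), sorted by value within a gene and group, with bars at the medians. *Bcl2* in the *E2a-/-* lines spreads from 0.332 to 109 CPM, while *Mcl1* stays between 165 and 245 CPM in all 15 lines.

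*Bcl2l1* (chr2:152780668-152831728 on GRCm38, minus strand), which encodes BCL-XL and its short splice form, was found in every line at a moderate level. The DKO lines had 21.5 CPM in DKO102.4, 15.3 in DKO170.2, 16.1 in DKO192.3, 25.9 in DKO241, 14.6 in DKO548, 19.5 in DKO713, 25.3 in DKO79.9 and 21.9 in DKOTu3. The *E2a-/-* lines had 18.1 CPM in SKO115.2, 17.6 in the library labelled SKO132, 42.7 in SKO137.1, 23.0 in SKO156.6, 26.6 in SKO163.5, 23.7 in SKO186.5 and 11.6 in SKO95. The highest and the lowest of all lines were both *E2a-/-*, and the DKO lines lay within them. The log2 fold change was -0.15 (95% interval -0.62 to 0.33, limma adjusted p = 0.854), and it was 0.010 without SKO137.1. With 1 value per gene, the splice forms of *Bcl2l1* and the isoforms of BIM and MCL1 could not be told apart.

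*Mcl1* (chr3:95658788-95663176 on GRCm38, plus strand), whose protein is short-lived and is needed for survival throughout T cell development, had the highest level of the survival genes and the least spread of them. In DKO lines it was at 241 CPM in DKO102.4, 201 in DKO170.2, 184 in DKO192.3, 181 in DKO241, 165 in DKO548, 211 in DKO713, 228 in DKO79.9 and 199 in DKOTu3. In *E2a-/-* lines it was at 245 CPM in SKO115.2, 168 in the library labelled SKO132, 212 in SKO137.1, 230 in SKO156.6, 183 in SKO163.5, 227 in SKO186.5 and 167 in SKO95. The ranges of the groups nearly coincided. The fold change was -0.02 on the log2 scale, within 95% limits of -0.24 and 0.21 (limma adjusted p = 0.970), and its sign turned under median-of-ratios and upper-quartile scaling. The standard deviation over lines on the log2 scale was 0.18 in DKO and 0.23 in *E2a-/-* lines, larger than that of 12.5% and 38.3% of the genes compared.

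The balance of the 3 genes was compared within each line as CPM per kb of exons, since a long transcript collects more reads. The exon lengths were 9.157 kb for *Bcl2*, 4.586 kb for *Bcl2l1* and 3.418 kb for *Mcl1*. *Mcl1* was the highest of the 3 in all 8 DKO and all 7 *E2a-/-* lines, with 89.3% to 93.9% of their sum in DKO lines (median 92.0%) and 77.1% to 93.0% in *E2a-/-* lines (median 86.9%). *Bcl2l1* came second in the 8 DKO lines, at 5.30% to 9.51% of the sum (median 6.14%), and its share in the *E2a-/-* lines was 4.33% to 13.0% (median 7.18%). *Bcl2* was last in every DKO line, at 0.811% to 4.48% (median 1.20%).

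In the *E2a-/-* lines *Bcl2* took between 0.0505% and 14.6% of the sum. The median, 0.699%, was the value of the library labelled SKO132. The order of *Bcl2* with *Bcl2l1* was not the same in all *E2a-/-* lines. *Bcl2* was above *Bcl2l1* in SKO115.2 (13.6% against 4.52%), SKO163.5 (14.6% against 8.34%) and SKO95 (12.2% against 4.33%). It was below *Bcl2l1* in the library labelled SKO132 (0.699% against 7.18%), SKO137.1 (0.123% against 13.0%), SKO156.6 (0.0624% against 6.92%) and SKO186.5 (0.0505% against 7.19%). SKO137.1, with little *Bcl2*, had the highest share and level of *Bcl2l1*, while SKO156.6 and SKO186.5, with still less *Bcl2*, had *Bcl2l1* shares within the range of the DKO lines. DKO713 had the highest share of *Bcl2* among DKO lines, at 4.48% against 6.15% for *Bcl2l1*. Without division by length *Bcl2* exceeded *Bcl2l1* in 1 of 8 DKO lines, DKO713, and in the same 3 of 7 *E2a-/-* lines.

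**Figure D2:**
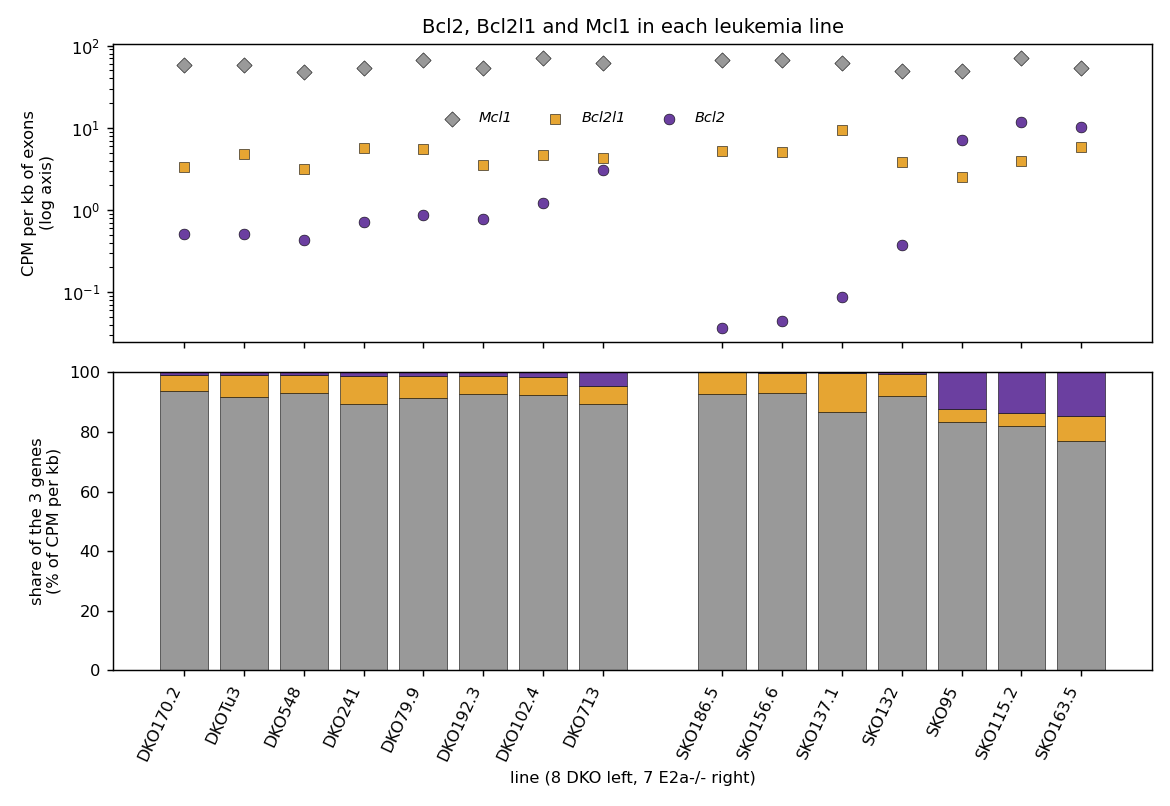
CPM per kb of exons (top, log axis) and share of the sum of the 3 genes in percent (bottom, stacked bars) for *Mcl1* (grey), *Bcl2l1* (orange) and *Bcl2* (purple) in each line, with 8 DKO lines left and 7 *E2a-/-* lines right. *Mcl1* takes at least 77.1% in every line, and *Bcl2* lies above *Bcl2l1* in SKO95, SKO115.2 and SKO163.5.

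Log2 ratios within a line, taken from log2(CPM + 1), were compared between the genotypes with two-sided exact permutation tests over the 6435 splits of the lines into 8 and 7. The mean log2 ratio of *Bcl2* to *Mcl1* was -4.53 ± 0.75 in DKO lines (SD, n = 8) and -4.34 ± 3.06 in *E2a-/-* lines (SD, n = 7), a difference of -0.19 (exact permutation p = 0.862). For *Bcl2l1* to *Mcl1* the means were -3.29 ± 0.27 and -3.16 ± 0.51 (SD, difference -0.13, exact permutation p = 0.556), and for *Bcl2* to *Bcl2l1* they were -1.25 ± 0.80 and -1.18 ± 3.30 (SD, difference -0.06, exact permutation p = 0.961). The ratio of *Bcl2l11*, the gene of the death activator BIM, to *Bcl2* was 3.19 ± 0.99 in DKO and 2.91 ± 3.07 in *E2a-/-* lines (SD, difference 0.28, exact permutation p = 0.811). Each of the 4 values was 0.961 once adjusted over the ratios (Benjamini-Hochberg). All 4 differences changed sign when some single line was left out, among them those of *Bcl2* to *Mcl1* without SKO95 (0.31), SKO115.2 (0.34) or SKO163.5 (0.37) and that of *Bcl2l1* to *Mcl1* without SKO137.1 (0.017). The difference of *Bcl2* to *Bcl2l1* became 0.53, 0.56 and 0.43 without SKO95, SKO115.2 and SKO163.5, and 0.022 and 0.045 without DKO241 and DKOTu3. That of *Bcl2l11* to *Bcl2* became -0.22, -0.33 and -0.20 without SKO95, SKO115.2 and SKO163.5.

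Whether survival genes move together over lines was examined in 6 relations, and none passed a permutation test. Among the DKO lines (n = 8, exact permutation p throughout), *Bcl2* with *Mcl1* had a Pearson r of 0.52 (p = 0.187) and a Spearman rho of 0.71 (p = 0.0576, 0.346 adjusted over the 6). Without the 2 lines farthest from the median of the first gene, r was 0.61 for *Bcl2* with *Mcl1*, 0.32 for *Bcl2* with *Bcl2l1*, 0.22 for *Bcl2l1* with *Mcl1* and -0.30 for *Bcl2l11* with *Bcl2*. *Bcl2* with *Bcl2l1* had an r of 0.26 (permutation p = 0.586) and a rho of 0.40 (p = 0.327), and *Bcl2l1* with *Mcl1* an r of 0.48 (p = 0.228) and a rho of 0.26 (p = 0.536). *Bcl2l11* with *Bcl2* had an r of -0.52 (permutation p = 0.192) and a rho of -0.48 (p = 0.243). The relations of *Bcl2* were not tested over all 15 lines or in the *E2a-/-* lines, where *Bcl2* split into a high and a low set. As a description over all 15 lines, the rho of *Bcl2* was 0.036 with *Mcl1*, -0.15 with *Bcl2l1* and -0.22 with *Bcl2l11*. *Bcl2l1* with *Mcl1* had an r of 0.40 in the *E2a-/-* lines (exact permutation p = 0.396) and 0.42 over all 15 lines (permutation p = 0.115), with rho of 0.32 (p = 0.498) and 0.36 (p = 0.182). Without the 2 lines farthest from the median, SKO137.1 and SKO95, r fell to 0.023 and 0.33. The adjusted p of the Pearson values ranged from 0.342 to 0.586.

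*Bak1* (chr17:27019810-27029009 on GRCm38, minus strand), the effector whose protein sits on the mitochondrial outer membrane, was at 73.2 to 111 CPM in DKO lines (median 91.4) and at 65.7 to 122 CPM in *E2a-/-* lines (median 81.0). The library labelled SKO132 was the highest and SKO115.2 the lowest of all lines, and the DKO lines lay between them. The log2 fold change was 0.14 (95% interval -0.13 to 0.40, limma adjusted p = 0.730). *Bak1* overlaps *Ggnbp1* on the opposite strand, and whether the counting used strand is not stated.

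The BH3-only genes were examined next, beginning with *Bcl2l11* (chr2:128126038-128162547 on GRCm38, plus strand). It was at 60.4 to 114 CPM in DKO lines (median 73.7) and at 60.0 to 101 CPM in *E2a-/-* lines (median 70.1), highest in DKO241 and SKO137.1. Its log2 fold change was 0.07 (95% interval -0.23 to 0.37, limma adjusted p = 0.899), and without DKO241 it was -0.0068.

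*Bad* (chr19:6941861-6951899 on GRCm38, plus strand), whose protein binds BCL2 and BCL-XL when it is not phosphorylated, had the lowest limma p of the 8 members. It was at 19.2 to 34.1 CPM in DKO lines (median 21.5) and at 11.2 to 27.9 CPM in *E2a-/-* lines (median 18.2). The 3 lowest lines, SKO163.5, SKO115.2 and SKO95 (11.2, 12.2 and 17.0 CPM), were the 3 with high *Bcl2*, and DKO170.2 had the highest value. How many of all genes were lowest in these lines was not counted. The log2 fold change was 0.36 (95% interval -0.04 to 0.76, limma adjusted p = 0.541, two-sided exact permutation p = 0.0749). *Bad* overlaps *Gpr137* on the opposite strand.

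*Bid* (chr6:120891930-120916853 on GRCm38, minus strand) links death receptors to mitochondria, since caspase 8 cleaves its protein into an active form. It was at 57.0 to 103 CPM in DKO lines (median 73.4) and at 23.3 to 150 CPM in *E2a-/-* lines (median 63.9), with SKO163.5 and SKO115.2 (116 CPM) highest and SKO95 lowest. The log2 fold change was 0.19 (95% interval -0.45 to 0.83, limma adjusted p = 0.863) and turned to -0.057 without SKO95. The level of chromosome 6, which carries *Bid*, was measured as the median over its genes of log2(CPM + 1) relative to the median line and to the autosomes. It was raised by 0.31 in SKO163.5, 0.23 in DKO548 and 0.16 in DKOTu3, where *Bid* was at 150, 103 and 89.9 CPM, the last 2 being the highest DKO values. The level of chromosome 6 was -0.0038 in SKO115.2, with *Bid* at 116 CPM, and -0.0091 in DKO79.9, with *Bid* at 88.4 CPM. The part of the chromosome in the level of *Bid* was not tested. *Bid* overlaps *Bcl2l13* on the opposite strand, another gene of the family, which was at 128 ± 30.4 CPM in DKO lines and at 122 ± 19.9 CPM in *E2a-/-* lines (SD, n = 8 and 7).

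*Bmf* (chr2:118528757-118549687 on GRCm38, minus strand), whose protein is held at the cytoskeleton until it is released, was at 5.52 to 26.2 CPM in DKO lines (median 12.5) and at 8.45 to 23.5 CPM in *E2a-/-* lines (median 18.8). DKO102.4, DKOTu3 and DKO713 were the lowest, at 5.52, 6.68 and 6.96 CPM, below all *E2a-/-* lines, while DKO192.3 and DKO79.9 were above all of them. The log2 fold change was -0.48 (95% interval -1.18 to 0.23, limma adjusted p = 0.646). In DKO lines *Bmf* and *Bcl2* had the largest spreads of the members, 0.80 and 0.83 on the log2 scale.

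None of the members differed between the genotypes past the threshold. With limma on log2(CPM + 1), 0 of 8 members had an adjusted p under 0.01, beside 0.0478% of the 12545 genes. At an adjusted p under 0.05 it was 0 of 8, beside 0.151% of all genes, and 0 of 8 had an unadjusted p under 0.05, beside 10.2% of all genes. Without the library labelled SKO132 limma called 17 genes, and 0 of 8 members. On the read counts edgeR's quasi-likelihood test and its likelihood ratio test called 0 of 8 (0.00797% and 0.67% of all genes), and so did DESeq2 (1.41% of all genes). By unadjusted p under 0.05, *Bcl2* passed in edgeR's likelihood ratio test and in DESeq2, where its adjusted p was 0.427 and 0.307. The values of the groups were fully separate for 0 of 8 members, beside 0.175% of all genes. The members' log2 fold changes ran from -0.48 to 0.36, with 4 above and 4 below 0 and a median of 0.03, against -0.02 over all genes. The intervals differ in what they leave room for, since that of *Mcl1* ended at -0.24 and 0.21 and that of *Bcl2* at -2.37 and 1.95.

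**Figure D3:**
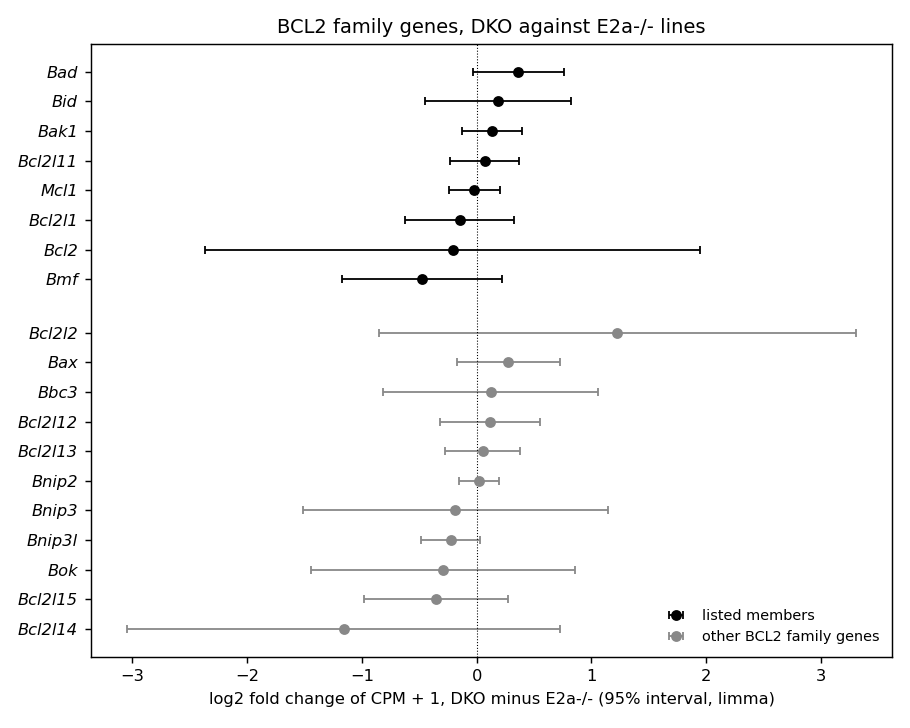
Log2 fold changes of CPM + 1 with 95% intervals from limma, DKO minus *E2a-/-* lines (n = 8 and 7), for the 8 analysed members (black) and 11 other BCL2 family genes (grey). Every interval crosses 0, that of *Bcl2* runs from -2.37 to 1.95, and that of *Mcl1* from -0.24 to 0.21.

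Per kb of exons, the members' levels fell in an order headed by *Mcl1*, with a median of 58.9 CPM per kb over the 15 lines. *Bak1* followed at 36.7, *Bid* at 20.3, *Bcl2l11* at 9.12, *Bad* at 7.84, *Bcl2l1* at 4.68, *Bmf* at 3.27 and *Bcl2* at 0.713 CPM per kb. The order of neighbours held in 14 of 15 lines for *Mcl1* over *Bak1* and for *Bid* over *Bcl2l11*, and in 13 of 15 for *Bak1* over *Bid*, *Bad* over *Bcl2l1* and *Bcl2l1* over *Bmf*. *Bcl2l11* was above *Bad* in 11 and *Bmf* above *Bcl2* in 10 lines. Over all 15 lines the ranges of each pair of neighbours overlapped. Within the 8 DKO lines those of *Mcl1* and *Bak1* were separate (lowest 48.3 against highest 46.1 CPM per kb), as were those of *Bak1* and *Bid* (30.4 against 29.0), *Bid* and *Bcl2l11* (16.0 against 14.1) and *Bad* and *Bcl2l1* (7.49 against 5.65). This order depends on the length used and was not repeated with the longest coding transcript. That transcript has 2.189 kb for *Bid*, against 3.55 kb of exons, and 2.387 kb for *Bak1*, against 2.407 kb.

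The 3 lines with high *Bcl2* were also the 3 highest of the 15 for 1 of 11 other BCL2 family genes, 2 of 16 genes of the apoptosome and caspases, 1 of 7 death receptor genes and 0 of 7 genes of MCL1 turnover, the lists that are described further at the end. *Bcl2l14*, a BCL2 relative, was at 86.6 CPM in SKO115.2, 89.6 in SKO163.5 and 35.2 in SKO95, and at no more than 14.6 CPM elsewhere. *Casp8*, the initiator caspase of death receptors, was at 188, 151 and 136 CPM in these lines and at no more than 86.5 CPM in the others. *Cflar*, which encodes the caspase 8 inhibitor c-FLIP, was at 93.3 to 105 CPM against at most 73.4. *Birc2*, an inhibitor of apoptosis gene, was at 54.1, 54.5 and 54.5 CPM against at most 47.1. The lines were picked by *Bcl2*, the same 3 were highest for 272 of 12545 genes (2.17%), and no test was run. *Bcl2*, *Casp8* and *Cflar* are on chromosome 1, whose level was 0.00 in each of the 3 lines. *Bcl2l14* is on chromosome 6, whose level was 0.31 in SKO163.5, -0.0038 in SKO115.2 and -0.019 in SKO95. The part of the chromosomes in these levels was not tested. In DKO548, where chromosome 1 was raised by 0.26, *Bcl2* was the lowest of the DKO lines.

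The genes most like each member in their order over the 15 lines were taken by Spearman's rho among the 9707 genes, as a description of points that share a library and a genotype. For *Bcl2* these were *Cd27*, a costimulatory receptor of lymphocytes (rho 0.94), *Dusp4*, a phosphatase of MAP kinases (0.94), and *Exoc6*, a subunit of the exocyst (0.91). *Cd27* was at 225, 225 and 104 CPM in SKO115.2, SKO163.5 and SKO95, at 37.1 to 160 CPM in DKO lines and at 10.9 to 36.9 CPM in the other 4 *E2a-/-* lines. *Dusp4* was at 314, 143 and 34.0 CPM in the 3 lines, at 124 CPM in DKO713 and at no more than 4.91 CPM in the other 4 *E2a-/-* lines. For *Bcl2l1* they were *2700081O15Rik* (rho 0.87), *Ndor1* and *Fbrsl1* (0.85 each), for *Mcl1* they were *Ube2d2a* (0.89), *Nrbf2* (0.86) and *Ranbp9* (0.84), and for *Bcl2l11* they were *Daglb* (0.84), *Kbtbd7* and *Camkk1* (0.79 each). Between *Bcl2* and the other members rho ran from -0.44 (*Bad*) to 0.33 (*Bid*).

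**Figure D4:**
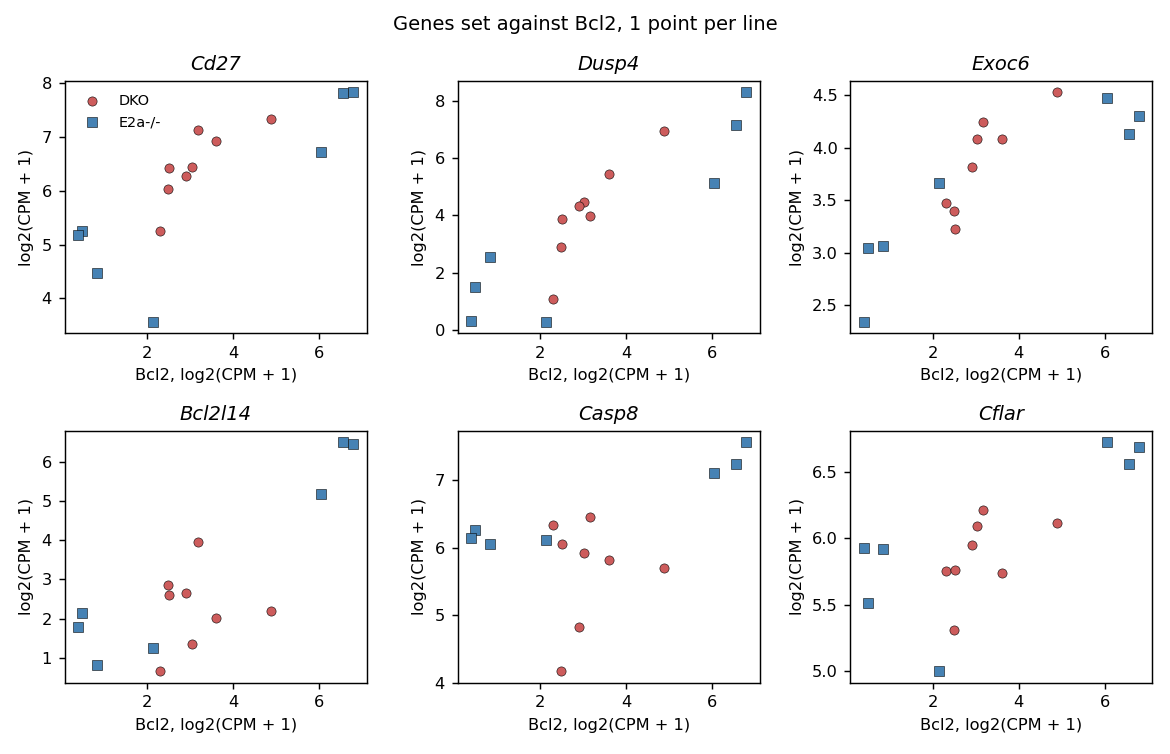
Log2(CPM + 1) of 6 genes against that of *Bcl2*, 1 point per line, for 8 DKO lines (circles) and 7 *E2a-/-* lines (squares). SKO115.2, SKO163.5 and SKO95 lie at the right of each panel, and for *Bcl2l14*, *Casp8* and *Cflar* they are also the 3 highest points.

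Other genes of the pathway were read from lists chosen by function. Of 17 other BCL2 family genes 11 were tested and 0 passed limma at an adjusted p under 0.01, beside 0.0478% of all genes. At an unadjusted p under 0.05 it was 0 of 11, beside 10.2% of all genes. The count tests called 0, beside 0.00797% (edgeR quasi-likelihood), 0.67% (edgeR likelihood ratio) and 1.41% (DESeq2) of all genes. *Bax*, the second effector, was at 103 ± 35.6 CPM in DKO lines (SD, n = 8) and at 83.2 ± 21.7 CPM in *E2a-/-* lines (SD, n = 7), a log2 fold change of 0.27. *Bnip3l*, a mitophagy receptor, had a log2 fold change of -0.23 (limma adjusted p = 0.557), and *Bcl2l14* one of -1.16 (limma adjusted p = 0.681), the *E2a-/-* mean resting on the 3 lines named above. On the read counts the log2 fold change of *Bcl2l14* was -2.66 by edgeR's quasi-likelihood test (adjusted p = 0.319) and -2.67 by DESeq2 (adjusted p = 0.0654).

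Of the 16 genes of the apoptosome and caspases, 0 passed limma, 3 had an unadjusted p under 0.05, edgeR called 0 and DESeq2 called 1, where the whole table had 10.2% of genes at an unadjusted p under 0.05 and 1.41% called by DESeq2. *Casp6*, an executioner caspase, was the gene called by DESeq2 (adjusted p = 0.00747). Its mean was 29.1 ± 13.8 CPM over the DKO and 13.4 ± 4.23 CPM over the *E2a-/-* lines (SD, n = 8 and 7), a log2 difference of 1.01 (limma adjusted p = 0.134). *Casp8* was at 55.3 ± 23.8 CPM in the DKO lines and 108 ± 49.9 CPM in the others (SD, log2 fold change -0.98, limma adjusted p = 0.336).

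Of 8 death receptor genes 7 were tested, and 0 passed limma, edgeR or DESeq2 or had a limma p under 0.05 before adjustment. Over all genes 10.2% had such a p, 0.0478% passed limma and 1.41% passed DESeq2. *Fas* was at 2.94 ± 2.24 CPM in DKO lines (SD, n = 8) and 6.79 ± 4.95 CPM in *E2a-/-* lines (SD, n = 7), a log2 fold change of -0.91 (limma adjusted p = 0.566). *Ripk1* and *Tnfrsf10b* had log2 fold changes of -0.21 and -0.24. Of 8 genes whose products control MCL1 protein or its degradation 7 were tested, and 0 passed limma or edgeR, 1 had an unadjusted p under 0.05 (10.2% of all genes did) and DESeq2 called that gene (1.41% of all genes). It was *Fbxw7*, a ubiquitin ligase subunit that targets MCL1 and NOTCH1, at 47.5 ± 4.81 CPM in DKO lines (SD, n = 8) and 37.8 ± 2.45 CPM in *E2a-/-* lines (SD, n = 7). Its log2 fold change was 0.32 (limma adjusted p = 0.140, DESeq2 adjusted p = 0.000304). *Gsk3a* and *Btrc*, which act in the same degradation route, had log2 fold changes of -0.21 and 0.36 (limma adjusted p = 0.560 and 0.566).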

How the data were processed

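RNA was sequenced from 8 DKO and 7 *E2a-/-* lines. Per the submitters' processing notes and the methods, the authors trimmed reads with Trimmomatic (0.33), aligned them to mm10 with TopHat2 (2.1.0), counted them on genes with HTSeq (0.6.1) and scaled them with edgeR, and they deposited CPM values for 12545 genes. How those genes were selected is not stated. Coordinates in the table are not GRCm38 (190 of 12172 starts lie within 1 bp), so exon lengths and gene positions came from GENCODE M21. The upstream windows were placed by RefSeq. All values (100%) were whole reads within 0.01, which served the count tests only. Detection limits cover counting error only, and the 95% intervals of fold changes, from limma, carry the spread between lines.

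CPM was tested as log2(CPM + 1), which understates fold changes of low genes, with limma (3.58.1, R 4.3.3, variance trend, two-sided, Benjamini-Hochberg over all 12545 genes, threshold 0.01), and single genes and ratios with exact permutation over lines (smallest possible p 0.000155). The other tests were edgeR (4.0.16) and DESeq2 (1.42.0). No 2 libraries of a genotype agreed within sampling noise (lowest chi-square per degree of freedom 63.1), so none was taken as deposited in duplicate. This does not show separate origin, and SKO156.6 and SKO186.5, most alike by rank (rho 0.987), were also averaged as an alternative. The limma, edgeR and DESeq2 fits were run on simulated data in which the spread setting was the same for all genes. That run does not show how the fits handle a gene as uneven over lines as *Bcl2*. Named genes were the members, the 3 lowest p of each other list, the 3 genes most like *Bcl2*, *Bcl2l1*, *Mcl1* and *Bcl2l11*, and *Lef1*. *Bcl2l13*, *Cflar* and *Birc2* were added after their values were seen. The result of 1 gene that this rule names is not reported here. Members and lists were chosen with earlier results of these data known. Alternatives were other pseudocounts (0.1 and 2), scalings, filters, weights and thresholds, and each line left out.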

Additional observations from a re-analysis of the deposited data

Results flagged for a closer look

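A line was flagged where its gap to its nearest neighbour within 1 genotype passed Dixon's 95% critical value. Of 54 sets of values of 1 gene, ratio or share, 9 held such a line. At 1 in 20 about 2.7 would pass, if the sets were independent and normally distributed. CPM and shares were not on a log scale and several sets share a gene, so 9 cannot be read against 2.7. DKO713 was the flagged line in 4 of the 9 sets, all from *Bcl2*, which was at 28.4 CPM against 3.97 to 11.2 CPM in the other DKO lines. In that line the log2 ratio of *Bcl2* to *Mcl1* was -2.85 (others -5.16 to -4.31), that of *Bcl2* to *Bcl2l1* was 0.52 (highest of the others -0.88), and the share of *Bcl2* in the 3 survival genes was 4.48% (others 0.811% to 1.61%). DKO79.9, the library with the fewest reads, had 14.6 CPM of *Bcl2l14* (other DKO lines 0.575 to 6.25) and 243 CPM of *Gsk3a* (others 151 to 193). DKO548 had 121 CPM of *Bnip3l* (others 79.2 to 97.5), and DKO170.2 had 59.9 CPM of *Casp6* (others 17.5 to 34.4). Among the *E2a-/-* lines, the library labelled SKO132 had 8.94 CPM of *Tnfrsf10b* (others 1.10 to 3.78).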

How the results depend on the processing

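No member was called under any alternative, the adjusted p of the 8 members staying at 0.280 or more, and *Bad*, *Bak1* and *Bmf* kept their direction in all 26. The count of 6 genes over the table became 1 with edgeR's quasi-likelihood test, 84 with its likelihood ratio test, 177 with DESeq2, 29 with array weights and 19 at an adjusted p under 0.05. It ran from 3 (without DKO170.2, DKO713, SKO137.1 or SKO156.6) to 17 (without SKO132), with 10 without DKO79.9. *Bcl2* turned to 0.54 with array weights and 0.25 with a pseudocount of 0.1, *Bcl2l11* to -0.016 with array weights, and *Mcl1* to 0.011 with SKO156.6 and SKO186.5 averaged, 0.0014 and 0.0016 with edgeR's likelihood ratio and quasi-likelihood tests, 2.6e-06 with median-of-ratios and 0.0093 with upper-quartile scaling. Leaving out 1 line in turn, the fold change ran from -0.69 to 0.37 for *Bcl2*, -0.29 to 0.010 for *Bcl2l1*, -0.065 to 0.027 for *Mcl1*, -0.0068 to 0.14 for *Bcl2l11* and -0.057 to 0.38 for *Bid*. With a pseudocount of 0.1 the ratio differences of *Bcl2* to *Mcl1*, *Bcl2* to *Bcl2l1* and *Bcl2l11* to *Bcl2* turned to 0.27, 0.40 and -0.18, and as differences of medians to 0.63, 0.54 and -0.25. For each of these ratios the *E2a-/-* median was the value of the library labelled SKO132. Over single lines left out, the ratio differences of *Bcl2* to *Mcl1* ran from -0.70 to 0.37, *Bcl2l1* to *Mcl1* from -0.22 to 0.017, *Bcl2* to *Bcl2l1* from -0.63 to 0.56 and *Bcl2l11* to *Bcl2* from -0.33 to 0.78. Without division by length the median shares in DKO lines were 3.07% for *Bcl2*, 7.90% for *Bcl2l1* and 88.1% for *Mcl1*. With the longest coding transcript, an alternative chosen after seeing the data, *Bcl2l1* took 10.4% in DKO and 12.1% in *E2a-/-* lines and *Mcl1* 87.0% and 78.8%. The cause of these moves was not tested. No setting moved the median of all genes by over 0.1. No paired analysis was possible because the genotypes share no line number. Depth limits the low *Bcl2* values, which rest on 6 to 13 reads in 3 *E2a-/-* lines.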
